A study of Mus musculus with 21 samples.

Results

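Chemically induced pluripotent stem cells (CiPSC) are made from fibroblasts with small molecules in place of introduced genes, and the comparison of the finished lines with the starting cells spans the whole conversion. RNA of 7 CiPSC lines, sequenced once each (C1 to C3, G1 and G3, N4 and N6 in the labels), was set against RNA of 2 libraries of mouse embryonic fibroblasts (MEF) taken at embryonic day 13.5. These 9 libraries, of 21 in the series, were chosen by their labels. Both groups carry the label C57BL/6J-Tg(GOFGFP)11Imeg/RbrcxICR, a reporter strain with GFP under Pou5f1 control crossed with ICR, so reporter and strain did not separate them. The compounds given to the cells, passage number, culture conditions and sex were not stated in the labels used here. Each line is a cell line of its own, and the labels do not say whether the lines or the MEF replicates came from different embryos, so the p-values measure the spread between these libraries. Embryonic stem cells (ESC) from day 3.5 embryos, 1 library of the same reporter cross and 1 of C57BL/6 (B6)N, are given beside named genes as values, with no test.

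Fibroblasts are mesenchymal cells that secrete collagen-rich matrix and pull on it with contractile fibres. Mouse pluripotent stem cells grow as epithelial colonies held together by E-cadherin, and a network around the transcription factors Oct4 (Pou5f1), Sox2 and Nanog maintains their identity. They divide rapidly with little arrest in G1, have their own set of chromatin regulators and transcribe some genes otherwise kept for germ cells. Conversion of one cell type into the other therefore involves loss of the mesenchymal programme as well as gain of the pluripotency network.

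Expression was measured as FPKM, in which the fragment count of a gene is divided by transcript length and library total. The sum of FPKM was 622116 to 686911 in CiPSC and 543198 to 586715 in MEF, and 12848 to 13650 genes in CiPSC and 12252 and 12789 in MEF reached 1 FPKM. Read totals are not known, and depth estimated from genes with few fragments ranged from 0.403 (C3) to 1.58 times (N4) that of ESC replicate 1, with 1.23 and 1.11 times in MEF. Mitochondrial transcripts took 1.17% ± 0.491 (SD, n = 7) of the FPKM in CiPSC and 2.20% ± 0.153 (SD, n = 2) in MEF, a two-sided exact permutation p of 0.0556, the smallest that 7 against 2 libraries allow. Across genes, on the log2(FPKM + 1) scale, CiPSC lines correlated with each other at r = 0.933 to 0.979, with MEF at 0.664 to 0.740 and with ESC at 0.928 to 0.969, although genes are no independent replicates. The MEF libraries correlated at 0.938 and differed in several programmes. Matrix genes were higher in replicate 2 (18 of 36 by at least 1 log2 unit, 2 the other way), and genes of replication and mitosis higher in replicate 1 (16 of 28, 0 the other way). Over all 14984 genes tested, 917 were higher by that much in replicate 1 and 1162 in replicate 2.

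Pluripotency, epithelial and germ cell genes were higher in CiPSC, and matrix, contractile and positional genes were lower. Of 14984 genes with at least 1 FPKM in 2 or more of the 9 libraries, 3597 (24.0%) were called higher and 2447 (16.3%) lower in CiPSC, 40.3% in either direction. A gene was called at a Benjamini-Hochberg adjusted p under 0.05 in limma and an absolute change of at least 1 on the log2(FPKM + 1) scale, which understates changes of genes near 0 FPKM. Changes of at least 2 log2 units numbered 1069 higher and 1100 lower, and changes of at least 5 numbered 85 and 86. All 7 lines stood above both MEF libraries for 5994 genes (40.0%) and below both for 3321 (22.2%). Over all genes tested the median difference was 0.342 log2 units in the values as deposited, and 59.5% of the calls were higher. After quantile normalization the median difference was 0.119 and the split 2679 higher and 2784 lower (49.0% higher), and after median-of-ratios scaling it was 0.087 with 2687 and 2958 (47.6% higher).

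**Figure D1:**
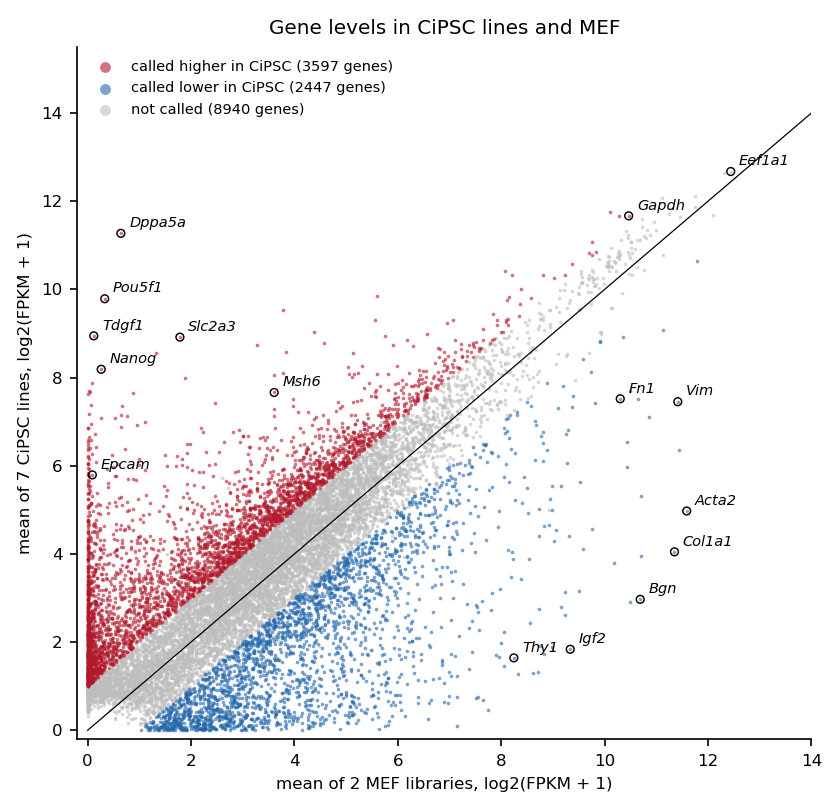
Mean level of each gene tested in the 7 CiPSC lines (vertical) and in the 2 MEF libraries (horizontal), both as log2(FPKM + 1), with the line of equal levels and 16 genes circled. Genes called higher in CiPSC (3597, red) reach up along the left edge at Dppa5a and Pou5f1, and genes called lower (2447, blue) spread out at the right to Col1a1 and Bgn, while Eef1a1 lies near the line.

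All 38 pluripotency factors on the list of markers were called higher in CiPSC, with a median change of 5.68 against 0.34 over all genes tested. Pou5f1 (Oct4, mm10 chromosome 17, positions 35506018 to 35510772), the core factor of the network, stood at 752 to 1127 FPKM in CiPSC (median 877), 0.228 and 0.288 in MEF, and 555 and 761 in ESC. The log2 change of Pou5f1 was 9.46 ± 0.15 (SE, adjusted p = 1.36e-10). Reads from the reporter transgene, if it carries Pou5f1 sequence, could not be told apart from those of the gene. Dppa5a, an RNA-binding protein of pluripotent cells, had the largest increase of all genes the naming rule covers: 2209 to 2801 FPKM in CiPSC (median 2453) against 0.842 and 0.324 in MEF, a change of 10.63 ± 0.15. Nanog (chromosome 6, positions 122707489 to 122714633) stood at 209 to 375 FPKM in CiPSC (median 288), 0.165 and 0.236 in MEF, and 380 and 487 in ESC, a change of 7.93 ± 0.22. Every line lay above both MEF libraries for these 3 genes, as for 40.0% of all genes tested. The rule for the largest increases, which these genes met, required this.

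Sox2, the partner of Oct4 on DNA, stood at 178 to 241 FPKM in CiPSC (median 188) against 0.496 and 1.26 in MEF (6.76 ± 0.18). Esrrb, a nuclear receptor of naive pluripotency, varied more among the lines, with 96.5 FPKM in C3 and 229 in N4 against 0.0959 and 0 in MEF (7.32 ± 0.29). The Nodal co-receptor Tdgf1 rose by 8.83, the chromatin protein Utf1 by 7.79, the zinc finger protein Zfp42 by 7.66, the RNA-binding protein L1td1 by 7.61 and threonine dehydrogenase (Tdh), which feeds one-carbon metabolism in mouse stem cells, by 7.14 log2 units. The uridine phosphorylase Upp1, at 4.09 and 0.2125 FPKM in MEF, completed the 10 largest increases (7.25 ± 0.50). The smallest increases on the list were those of Fut9 and Klf4. Klf4 stood at 40.2 to 131 FPKM in CiPSC (median 79.6) against 25.2 and 23.3 in MEF (1.62 ± 0.34, adjusted p = 0.00201). Fut9, the enzyme that makes the SSEA-1 surface sugar, stood at 0.984 to 3.14 FPKM against 0.0261 and 0.0113 (1.51 ± 0.29). The summed level of the list was 6898 to 8221 FPKM in CiPSC, 71.7 and 103 in MEF, and 7153 and 7273 in ESC.

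**Figure D2:**
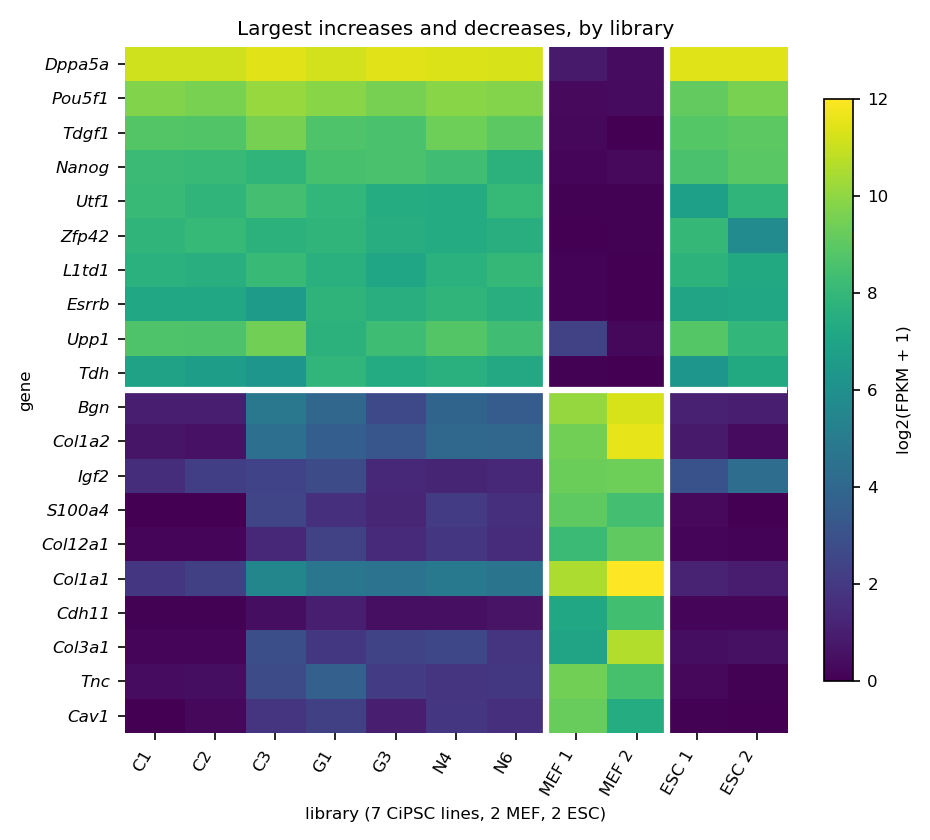
Level of the 10 named genes with the largest increase (top) and the 10 with the largest decrease (bottom) in every library, as log2(FPKM + 1) by colour, with CiPSC lines at the left, then MEF and ESC. The increases are high in all 7 lines and near 0 in both MEF libraries, except for Upp1, at 4.09 FPKM in MEF replicate 1. Among the decreases, Bgn, Col1a2 and Col1a1 are darker in C1 and C2 than in the other 5 lines, and both MEF libraries are bright.

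The start regions of 2 of these genes show letters that Oct4 is known to bind, and each window below holds the 250 bases before the RefSeq start (GRCm38.p6). Capitals in Nanog mark the joint Oct4 and Sox2 element known from this promoter, read from this window as TTTGCATTACAATG and searched on both strands, and capitals in Zfp42 mark the octamer ATTTGCAT. The plus strand is shown for Nanog (chr6:122707239-122707488) and the minus strand for Zfp42 (chr8:43307010-43307259).
Nanog: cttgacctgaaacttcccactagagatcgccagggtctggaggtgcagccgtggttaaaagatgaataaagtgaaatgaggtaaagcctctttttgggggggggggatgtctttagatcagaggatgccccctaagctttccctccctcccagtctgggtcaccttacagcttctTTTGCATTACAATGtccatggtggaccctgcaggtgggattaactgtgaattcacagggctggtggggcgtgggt
Zfp42: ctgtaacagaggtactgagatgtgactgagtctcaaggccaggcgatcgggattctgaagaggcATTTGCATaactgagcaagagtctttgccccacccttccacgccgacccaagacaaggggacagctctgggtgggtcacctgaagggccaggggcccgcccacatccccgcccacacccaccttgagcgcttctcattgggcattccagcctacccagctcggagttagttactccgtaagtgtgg
The joint element begins 75 bases before the Nanog start and the octamer 186 bases before the Zfp42 start. Among 27025 promoter windows of the same length, the joint element was present in 1, that of Nanog, and the octamer in 435 (1.61%). The first 7 letters of the joint element are the last 7 of the octamer, and the Nanog window holds no full octamer. These matches describe the letters only.

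Genes of neighbouring pluripotent states and of the germ line were also present in the lines. Of 13 tested genes of formative and primed pluripotency, 9 rose and 2 fell (median 1.76). Nodal, the ligand that acts through Tdgf1, stood at 27.2 to 45.0 FPKM in CiPSC (median 40.6) and at 0 in both MEF libraries, and Zic2, a zinc finger factor, rose by 3.84. Otx2, a factor of the formative state, ranged from 0.722 to 17.6 FPKM among the lines, with 0 in both MEF libraries (2.07 ± 0.75, adjusted p = 0.0336). The 2 that fell were the zinc finger factor Sall2 (-1.20) and Fgf5, a growth factor of the primed state, at 0 to 0.246 FPKM in CiPSC against 1.05 and 1.35 in MEF. Sall2 was not called without MEF replicate 2 (-0.70, adjusted p = 0.261). Fgf5 lay at the fold threshold and was not called without MEF replicate 2 (-0.90) or without G3, N4 or N6 (-0.99, -0.98 and -0.98).

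Germ cell genes rose in 19 of 23 cases with 0 lower (median 2.67), although germ cells were not part of either sample by the labels. Tex19.1, which restrains transposons, stood at 26.6 to 153 FPKM in CiPSC (median 72.2) against 0.04 and 0 in MEF (6.12 ± 0.58). Sohlh2, a transcription factor of early germ cells, rose by 4.83, the piRNA pathway proteins Rnf17 by 4.30 and Tdrd12 by 4.13, and the RNA-binding protein Dazl by 4.13. Dazl stood at 101 and 86.2 FPKM in ESC, above all 7 lines (3.81 to 53.6), whereas Tdrd12 stood at 10.1 and 17.6 in ESC and 13.0 to 29.3 in the lines. Genes of cells that resemble the 2-cell embryo rose in 9 of 12 cases (median 2.55), led by the Zscan4 cluster on chromosome 7. Zscan4 genes are near-identical copies, so their single values are uncertain. The count was 3 without MEF replicate 1, 3 without MEF replicate 2 and 5 with the G and N lines alone.

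Epithelial genes rose together while the factors that repress them fell. Of 28 epithelial genes tested, 25 rose and 0 fell (median 2.67). E-cadherin (Cdh1), the adhesion protein of epithelial and pluripotent cells, stood at 81.3 to 130 FPKM in CiPSC (median 108), 0.166 and 0.032 in MEF, and 128 and 138 in ESC (6.59 ± 0.17, adjusted p = 4e-09). Epcam stood at 36.2 to 84.0 FPKM in CiPSC (median 45.8) against 0.135 and 0 in MEF (5.70 ± 0.32). The ETS factor Elf3 rose by 5.91, the tight junction protein Cldn4 by 5.24 and the protease inhibitor Spint1 by 4.68. The keratin Krt8 was less even, with 62.4, 63.6 and 59.0 FPKM in C1, C2 and G1 but 4.31 to 13.8 in the other 4 lines, against 0.886 and 1.81 in MEF (3.20 ± 0.95, adjusted p = 0.0138). Krt8 was not called without MEF replicate 1 (adjusted p = 0.102) or replicate 2 (adjusted p = 0.0612). Krt19 did not pass the test, at 3.12 to 24.5 FPKM in CiPSC against 39.0 and 2.74 in MEF (-0.59 ± 0.85, adjusted p = 0.561).

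All 11 regulators of epithelial to mesenchymal transition and mesenchymal cadherins tested fell (median -4.07). The repressors of E-cadherin Snai2 and Zeb2 fell by 3.96 and 4.29 log2 units. Zeb1 stood at 4.41 to 7.90 FPKM in CiPSC (median 5.63) against 14.5 and 19.4 in MEF and fell by 1.42, the smallest change on this list. The mesenchymal factor Prrx1 fell to 0.0144 to 1.85 FPKM in CiPSC (median 0.626), against 115 and 133 in MEF (-6.35 ± 0.34), and Twist2 by 5.62. The cadherins switched: beside the gain of Cdh1, N-cadherin (Cdh2) fell by 4.63 and cadherin 11 (Cdh11) by 7.29. Every line lay above both MEF libraries for Cdh1, as for 40.0% of all genes tested. Every line lay below both for Cdh2 and Cdh11, as for 22.2%, and the rule that named Cdh11 required this.

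The Epcam start region is shown because it holds the E-box CAGGTG, searched on both strands, the letters bound by Snail and Zeb repressors, in 2 places. Capitals mark these matches, which begin 187 and 19 bases before the start, on the plus strand at chr17:87635729-87635978 (RefSeq, GRCm38.p6).
Epcam: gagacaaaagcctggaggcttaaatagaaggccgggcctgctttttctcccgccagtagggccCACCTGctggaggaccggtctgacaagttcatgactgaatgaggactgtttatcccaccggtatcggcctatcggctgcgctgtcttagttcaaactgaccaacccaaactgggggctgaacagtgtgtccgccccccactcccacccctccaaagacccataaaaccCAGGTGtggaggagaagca
The E-box occurs in 4620 of 27025 promoter windows (17.1%), among them those of Nanog and Zfp42 with 1 match each, and is common among promoters.

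Fibroblast matrix genes were lower throughout. All 36 matrix genes tested fell, with a median of -5.74. Collagen I chain Col1a1 (chromosome 11, positions 94936224 to 94953042) stood at 2.68 to 44.0 FPKM in CiPSC (median 23.8), 1467 and 4659 in MEF, and 1.28 and 0.970 in ESC, a change of -7.31 ± 0.91 (adjusted p = 6.9e-05). The proteoglycan Bgn fell by 7.72, the largest decrease named, Col1a2 by 7.57, collagen XII (Col12a1) by 7.33, and collagen III (Col3a1) and tenascin (Tnc) by 7.09 each. Fibronectin (Fn1) stood at 128 to 244 FPKM in CiPSC (median 178), 1037 and 1538 in MEF, and 192 and 230 in ESC (-2.78 ± 0.23), so that ESC held it at the level of the lines. Of 26 surface and cytoskeletal genes of fibroblasts, 23 fell and 0 rose (median -4.22). They included the calcium-binding protein S100a4 (-7.40), the caveolar protein Cav1 (-7.05), the surface protein Thy1 (-6.60) and the intermediate filament vimentin (Vim, -3.96). Endoglin (Eng) did not pass the test, at 10.4 to 19.6 FPKM in CiPSC against 13.8 and 18.4 in MEF (-0.04 ± 0.22, adjusted p = 0.895).

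The lines differed in their level of matrix mRNA. The labels used here do not say whether the lines were grown on feeder cells, and mRNA of feeder fibroblasts and of the lines cannot be told apart. Col1a1 stood at 2.68 FPKM in C1 and 3.76 in C2, and at 44.0 in C3, 24.9 in G1, 22.5 in G3, 27.5 in N4 and 23.8 in N6. The collagen cross-linking enzyme Lox stood at 0.0402 FPKM in C1 and 0.113 in C2, and at 16.5, 16.2, 6.27, 11.3 and 9.76 FPKM in C3, G1, G3, N4 and N6. MEF held 585 and 612 FPKM of Lox, and ESC 0.122 and 0.0870. For Col1a1 and Lox, C1 and C2 lay closer to ESC than the other 5 lines did, and all 7 lines lay far below MEF. As a share of the mean MEF level, the median matrix gene stood at 0.405% in C1 and 0.376% in C2, 1.48% in C3, 1.81% in G1, 0.762% in G3, 0.909% in N4 and 0.916% in N6, and at 0.257% and 0.238% in ESC. The contractile list did not follow this order, with 6.34% in C1, 7.47% in C2, 6.67% in C3 and 7.62% in G1, and 4.18%, 3.71% and 5.18% in G3, N4 and N6 (ESC 3.65% and 2.80%). The median Hox gene stood at 6.27% in C1 and 10.3% in C2, 13.2% in C3, 7.39% in G1 and 5.22% in G3, and at 1.93% in N4 and 1.81% in N6. In bulk RNA, fewer cells with such mRNA and less of it per cell cannot be told apart. With C1 and C2 as the only lines, an alternative chosen after seeing the data, 3500 genes were higher and 2280 lower.

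**Figure D3:**
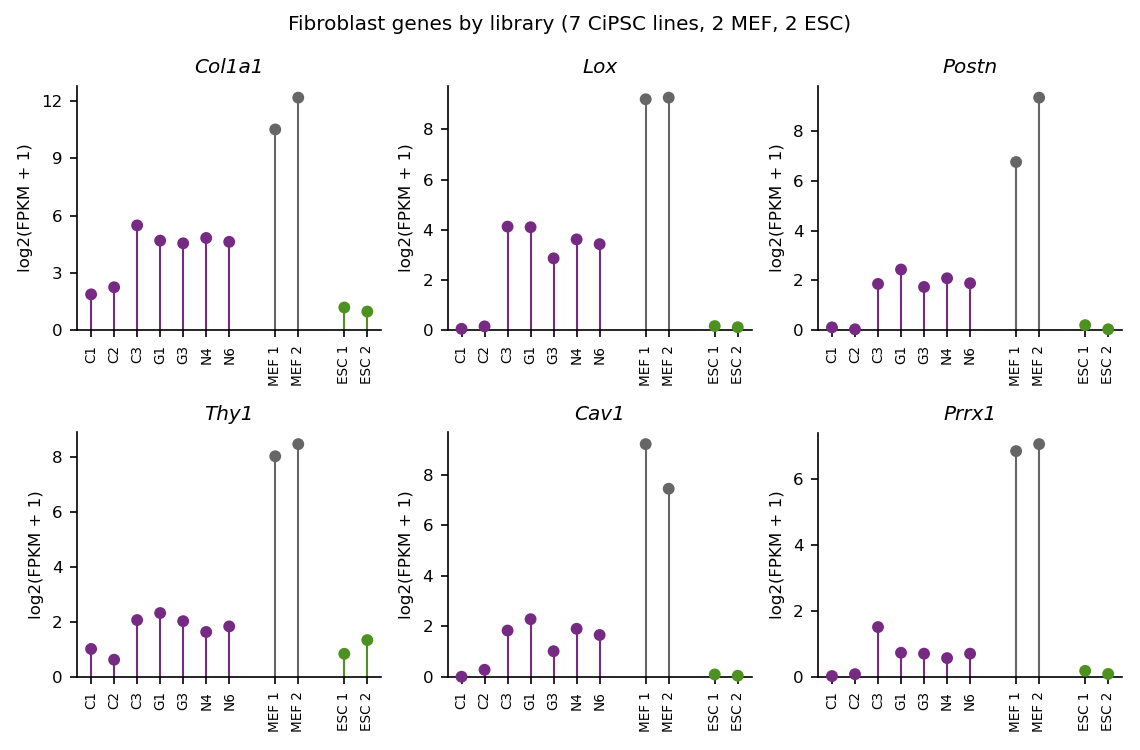
Level of 6 fibroblast genes in each library as log2(FPKM + 1), with the 7 CiPSC lines at the left (purple), then 2 MEF (grey) and 2 ESC (green) libraries. C1 and C2 lie close to ESC for Col1a1, Lox, Postn, Cav1 and Prrx1, the other 5 lines lie between ESC and MEF, and MEF is highest in every panel.

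Contractile genes fell in all 17 cases (median -3.72). Smooth muscle actin (Acta2) stood at 11.2 to 138 FPKM in CiPSC (median 29.1), 4713 and 2015 in MEF (-6.62 ± 0.73). The actin-binding protein transgelin (Tagln) fell by 5.39, Actg2 by 5.83, caldesmon (Cald1) by 5.20 and the myosin light chain Myl9 by 4.72. Of 17 genes that respond to TGF beta or YAP, 15 fell and 0 rose (median -3.71). The activin subunit Inhba, at 394 and 30.4 FPKM in MEF, fell by 5.61 ± 0.96, the ligand Tgfb3 by 5.42 and the receptor Tgfbr2 by 4.33. MEF replicate 1 stood above replicate 2 by at least 1 log2 unit for 9 of these 17 genes, with 2 the other way. The same held for 8 of the 17 contractile genes, with 0 the other way. The feedback inhibitors Smad7 and Skil did not pass the test (0.57 and 0.13), with Smad7 at 19.5 to 61.9 FPKM in CiPSC against 58.6 and 9.26 in MEF.

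Myl9 is shown as a contractile gene with a serum response factor site, the CArG box, in its start region. Capitals mark the match, which begins 161 bases before the start, on the plus strand at chr2:156775214-156775463 (RefSeq, GRCm38.p6).
Myl9: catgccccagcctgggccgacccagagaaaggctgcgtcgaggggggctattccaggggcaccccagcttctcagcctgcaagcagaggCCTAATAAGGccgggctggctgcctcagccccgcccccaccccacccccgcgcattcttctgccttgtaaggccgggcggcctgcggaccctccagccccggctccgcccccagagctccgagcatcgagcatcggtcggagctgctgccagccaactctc
The CArG box, searched on both strands, was found in 378 of 27025 promoter windows (1.40%).

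Positional identity genes of the embryo body fell as well. Of 31 Hox genes tested, 25 fell and 0 rose (median -1.87), against 16.3% and 24.0% over all genes. The largest change upward was 0.97, just under the fold threshold. With pseudocount 0.1, or with the C lines only, 2 Hox genes were called higher. With the filter at 5 FPKM, which tests fewer genes, 10 fell. Hoxc6 stood at 0 to 0.541 FPKM in CiPSC (median 0.157), 17.2 and 27.3 in MEF, and 0 and 0.047 in ESC (-4.25 ± 0.24). Hoxc10 (-3.72), Hoxc8 (-3.55), Hoxb9 (-3.27) and Hoxa10 (-3.03) followed, all from the middle or posterior part of their clusters. Of 22 patterning factors of mesoderm, 15 fell and 1 rose (median -1.82). Tbx15, a T-box factor of trunk and limb mesenchyme, fell by 4.35, the blood and bone factors Runx1 and Runx2 by 4.30 and 3.76, the kidney and limb factor Osr1 by 4.27 and the homeobox factor Emx2 by 3.80.

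Markers of other cell types moved in both directions. Of 12 tested macrophage and blood genes, 9 fell and 1 rose. The lysozyme gene Lyz2 stood at 0 to 0.175 FPKM in CiPSC, 92.6 and 30.2 in MEF, and 0 in both ESC libraries (-5.66 ± 0.32), and the complement gene C1qa and the adaptor Tyrobp fell by 2.63 and 2.72. Summed over the list, macrophage and blood genes gave 40.1 to 110 FPKM in CiPSC, 73.9 and 147 in MEF, and 39.2 and 64.8 in ESC. Most of the sum in the lines came from Laptm5 alone, described below. The pan-leukocyte marker Ptprc was at 0 in all 7 lines and averaged 0.581 FPKM in MEF. The part of macrophages among the fibroblasts in the 2447 decreases was not tested. Laptm5, a lysosomal protein on the same list, rose by 3.71 and stood at 31.5 to 98.3 FPKM in CiPSC, 2.85 and 4.15 in MEF, and 31.2 and 50.4 in ESC.

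Among other lineages, the endothelial list had 4 of 7 higher and 1 lower: the adhesion protein Pecam1, also present on mouse ESC, stood at 23.5 to 36.3 FPKM in CiPSC, 0 and 0.0241 in MEF, and 40.5 and 54.4 in ESC (4.93 ± 0.19). The endothelial count of 4 was 2 without MEF replicate 1, C1 or G1 and 1 after quantile normalization. Vascular cadherin (Cdh5) averaged 0.0294 FPKM in CiPSC and 0.0584 in MEF, below the filter. The muscle light chain Mylpf stood at 306 to 588 FPKM in CiPSC (median 449), 1.27 and 40.0 in MEF, and 265 and 427 in ESC (5.47 ± 0.78). Mylpf was one of 7 tested striated muscle genes, of which cardiac troponin Tnnt2 fell (-3.41) and the other 5 were not called. The microtubule regulator Stmn2 led 5 of 8 neuronal genes that rose (4.52 ± 0.31), and the AP-2 factor Tfap2c led 4 of 8 trophoblast genes (5.36 ± 0.29). Without MEF replicate 2 these counts were 3 neuronal and 2 trophoblast genes. Over all genes tested, 24.0% were called higher and 16.3% lower, and the endothelial, striated muscle, neuronal and trophoblast lists are short. Stmn2 stood at 67.7 and 68.5 FPKM in ESC and Tfap2c at 45.7 and 38.5.

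Extraembryonic endoderm (XEN) cells are an intermediate of this route. Their factors Gata4 and Sox17 were at low FPKM in the lines, and no XEN library is set beside them here. Both genes stood above both MEF libraries in all 7 lines, as 40.0% of all genes tested did. The endoderm factor Gata4 lay at 0.761 to 2.66 FPKM in CiPSC (median 1.14), 0.412 and 0.0307 in MEF, and 0.708 and 1.56 in ESC, and missed the fold threshold (0.94 ± 0.30, adjusted p = 0.0209). Sox17 stood at 0.369 to 1.90 FPKM in CiPSC, 0.211 and 0 in MEF, and 0.548 and 0.866 in ESC (0.82 ± 0.28, adjusted p = 0.0272). Gata6 was not called (-0.98 ± 0.38), and Sox7 and Foxa2 were below the filter. Of 15 genes on the XEN list that were tested, 7 fell and 2 rose, against 16.3% and 24.0% over all genes. Those that fell include Col4a1 (-4.34), Col4a2 (-4.71) and the activin antagonist Fst (-4.13), which fibroblasts transcribe too.

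Antigen presentation and interferon genes fell in 10 of 22 cases with 0 higher (median -0.96), against 16.3% and 24.0% over all genes. Beta-2-microglobulin (B2m), the light chain of MHC class I, stood at 11.6 to 20.0 FPKM in CiPSC (median 16.0), 260 and 334 in MEF, and 18.8 and 14.1 in ESC (-4.15 ± 0.22). The heavy chain H2-D1 fell by 2.16, the ubiquitin-like protein Isg15 by 2.61 and Ifit2 by 2.22. H2-D1 belongs to a family of close copies, so its single value is uncertain. The list was lower in MEF replicate 1 than in replicate 2 for 12 of 22 genes by at least 1 log2 unit, and without replicate 2 the count was 4 lower and 2 higher. With C1 and C2 as the only lines, 5 genes of the list fell.

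Genes of replication, mitosis and repair were higher in CiPSC. Of 28 genes of replication and mitosis, 22 rose and 0 fell (median 1.64). The origin recognition subunit Orc1 rose by 2.89, the replicative helicase subunits Mcm7, Mcm5 and Mcm2 by 2.48, 2.45 and 2.41, and cyclin E1 (Ccne1), which drives entry into S phase, by 2.38. Mcm7 stood at 232 to 294 FPKM in CiPSC (median 278) against 66.8 and 34.0 in MEF. The proliferation marker Mki67 did not pass the test, with a median of 24.9 FPKM in CiPSC against 24.6 and 22.5 in MEF (-0.04 ± 0.26, adjusted p = 0.900). Of 15 telomere and repair genes, 14 rose (median 2.06). The mismatch repair protein Msh6 led the list with a change of 4.05 ± 0.12 and stood at 178 to 223 FPKM in CiPSC against 11.6 and 10.8 in MEF. Telomerase reverse transcriptase (Tert) was not called, at 1.42 to 3.52 FPKM in CiPSC against 0.716 and 0.965 in MEF (0.98 ± 0.26, adjusted p = 0.00876).

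On the list of arrest and senescence genes, 11 of 22 fell and 2 rose (median -1.12), against 16.3% and 24.0% over all genes. The list also holds D cyclins, which promote the cell cycle rather than arrest it. The secreted IGF-binding proteins Igfbp7 and Igfbp5 fell by 6.34 and 6.26 and cyclin D2 (Ccnd2) by 5.67. The CDK inhibitors Cdkn1c (-3.10), Cdkn2b (-3.04) and Cdkn1a (p21, -1.14) fell, whereas Cdkn2a, whose locus encodes p16 and p19ARF, was not called. Cdkn2a stood at 7.99 to 24.8 FPKM in CiPSC (median 18.3), 13.4 and 32.5 in MEF, and 18.3 and 18.4 in ESC (-0.41 ± 0.45, adjusted p = 0.454). Cdkn1a was not called without MEF replicate 1. The tumour suppressor p53 (Trp53) and cyclin D3 (Ccnd3) rose by 1.17 and 1.13, but under the fold threshold after quantile normalization (0.97 and 0.94) and median-of-ratios scaling (0.87 and 0.83).

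Chromatin regulators changed in composition. Of 13 genes of DNA methylation and its removal, 10 rose and 1 fell (median 2.70). Dnmt3l, the cofactor of de novo methylation, stood at 45.1 to 469 FPKM in CiPSC (median 128), 1.12 and 1.20 in MEF, and 63.2 and 114 in ESC (5.88 ± 0.63). The de novo methyltransferase Dnmt3b rose by 4.92, the dioxygenases Tet1 and Tet2 by 4.80 and 3.08 and the imprint protector Zfp57 by 3.52. Tet3 went the other way (-1.10 ± 0.21) and was not called without MEF replicate 2. Polycomb genes rose in 12 of 19 cases and fell in 2, against 24.0% and 16.3% over all genes. Cbx7, a chromobox protein of PRC1, stood at 69.6 to 108 FPKM in CiPSC against 0.689 and 0.635 in MEF (5.65 ± 0.18). Jarid2, a subunit that guides PRC2, rose by 4.51, and the core subunits Ezh2, Eed and Suz12 by 2.01, 2.27 and 1.87. Bmi1 fell by 1.55 and its PRC1 relative Pcgf6 rose by 2.54.

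SWI/SNF remodelling subunits rose in 5 of 17 cases and fell in 3, shares near those over all genes (24.0% and 16.3%), and 3 rose after median-of-ratios scaling. Smarcd1 rose by 2.18 and its relative Smarcd3 fell by 1.91. Smarcc1 rose by 1.24 and Smarcc2 fell by 1.52. The ATPase Smarca2 (Brm) stood at 1.41 to 2.75 FPKM in CiPSC (median 1.99) against 10.1 and 26.6 in MEF (-2.48 ± 0.31). The other ATPase, Smarca4 (Brg1), stood at 66.2 to 78.6 FPKM against 57.9 and 39.7 and was not called (0.63 ± 0.14, adjusted p = 0.00334).

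Metabolic genes rose in part, and the counts for glycolysis and oxidative phosphorylation depended on the MEF library. Glycolysis genes rose in 14 of 20 cases with 0 lower (median 1.28), and in 7 without MEF replicate 2. The glucose transporter Slc2a3 (GLUT3) stood at 376 to 776 FPKM in CiPSC (median 446), 2.26 and 2.65 in MEF, and 512 and 353 in ESC, a change of 7.13 ± 0.24 (adjusted p = 1.31e-08). Hexokinase 2 (Hk2) rose by 2.84, lactate dehydrogenase B (Ldhb) by 2.76 and pyruvate dehydrogenase kinase 1 (Pdk1) by 2.74, whereas Ldha, the muscle-type subunit, was not called (0.39 ± 0.41, adjusted p = 0.420). Of 16 one-carbon and threonine genes, 8 rose and 0 fell (median 1.06), against 24.0% and 16.3% over all genes. Both glycine cleavage proteins rose most, Amt by 5.45 and Gldc by 5.11. Changes of the 20 oxidative phosphorylation genes ran from 0.09 to 4.34 (median 0.88). Of these genes, 7 were called higher, against 24.0% over all genes, led by the cytochrome oxidase subunit Cox7a1 (4.34 ± 0.35). That count was 2 after median-of-ratios scaling, 11 without MEF replicate 1 and 4 without MEF replicate 2.

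Cholesterol and fatty acid synthesis had 1 of 20 genes higher and 1 lower, smaller shares than over all genes (24.0% and 16.3%). MEF replicate 2 stood above replicate 1 by at least 1 log2 unit for 10 of these 20 genes, and 6 were called higher without replicate 2 and 4 lower without replicate 1. Of 15 chaperone and stress genes, 4 rose and 3 fell, again near the shares over all genes, and 2 rose without MEF replicate 2 or under either scaling. The cytosolic chaperone Hsp90aa1 stood at 1202 to 1504 FPKM in CiPSC against 430 and 167 in MEF (2.34 ± 0.28), and the lens crystallin and muscle chaperone Cryab fell by 3.57.

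Imprinted genes, which are transcribed from 1 parental allele, went both ways: 8 of 21 rose and 7 fell, against 24.0% and 16.3% over all genes. Their median of 0.06 turned negative after quantile normalization (-0.18) and median-of-ratios scaling (-0.24). The growth factor Igf2 stood at 1.33 to 5.85 FPKM in CiPSC (median 1.94), 634 and 658 in MEF, and 7.19 and 18.4 in ESC (-7.50 ± 0.40). The neighbouring non-coding RNA H19 was uneven among the lines, with 259, 264 and 173 FPKM in C1, C2 and G1 and 8.96 to 44.5 in the other 4, against 312 and 1234 in MEF (-3.22 ± 1.17, adjusted p = 0.0342). H19 was not called without MEF replicate 1 (-4.21) or replicate 2 (-2.23), or without C3, G3 or N6 (-3.03 to -3.12). The growth inhibitor Grb10 fell by 4.69 and Dlk1 by 3.80, while Phlda2 rose by 4.45 and the retrotransposon-derived Peg10 by 2.54. Within the Dlk1 cluster, the non-coding RNA Meg3 stood at 55.5 to 132 FPKM in CiPSC (median 103), 39.6 and 38.5 in MEF, and 14.1 in each ESC library (1.18 ± 0.32). Rian of the same cluster was not called (148 to 274 FPKM in CiPSC, 146 and 204 in MEF, 32.4 and 33.4 in ESC). Dlk1 and Meg3, which are read from opposite parental alleles, thus differed in direction.

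Sex chromosome genes separated a line from the rest. The Y-linked genes Ddx3y, Eif2s3y, Kdm5d and Uty were at 0 in C1, whereas Ddx3y ranged from 4.78 to 12.2 FPKM in the other 6 lines and stood at 15.0 and 9.54 in MEF. None of the 4 was called. Xist, the RNA that coats an inactive X chromosome, stood at 0.107 to 0.275 FPKM in the lines, including 0.166 in C1, and at 0.00358 and 4.20 in MEF.

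Of 24 genes of LIF, FGF, BMP and Wnt signalling, 6 rose and 6 fell, against 24.0% and 16.3% over all genes, so the count says little about the list as a whole. The FGF-responsive factor Etv5 rose by 3.57, the Wnt effector Tcf7 by 3.81 and the LIF-responsive inhibitor Socs3 by 1.86. The shared receptor chain Il6st fell by 2.36, the receptor Fgfr2 by 2.22 and the BMP-responsive factor Id3 by 3.41. Id3 stood at 5.05 to 39.9 FPKM in CiPSC against 288 and 152 in MEF. Of 14 RNA-binding and splicing regulators, 4 rose and 3 fell, which is also near the shares over all genes. The 3 that fell, Mbnl2 (-2.87), Mbnl1 (-2.83) and Celf2 (-1.99), include both muscleblind proteins known to repress splicing patterns of pluripotent cells. Igf2bp1 (3.39), the splicing regulator Rbm47 (2.75) and the let-7 inhibitor Lin28b (2.17) rose.

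**Figure D4:**
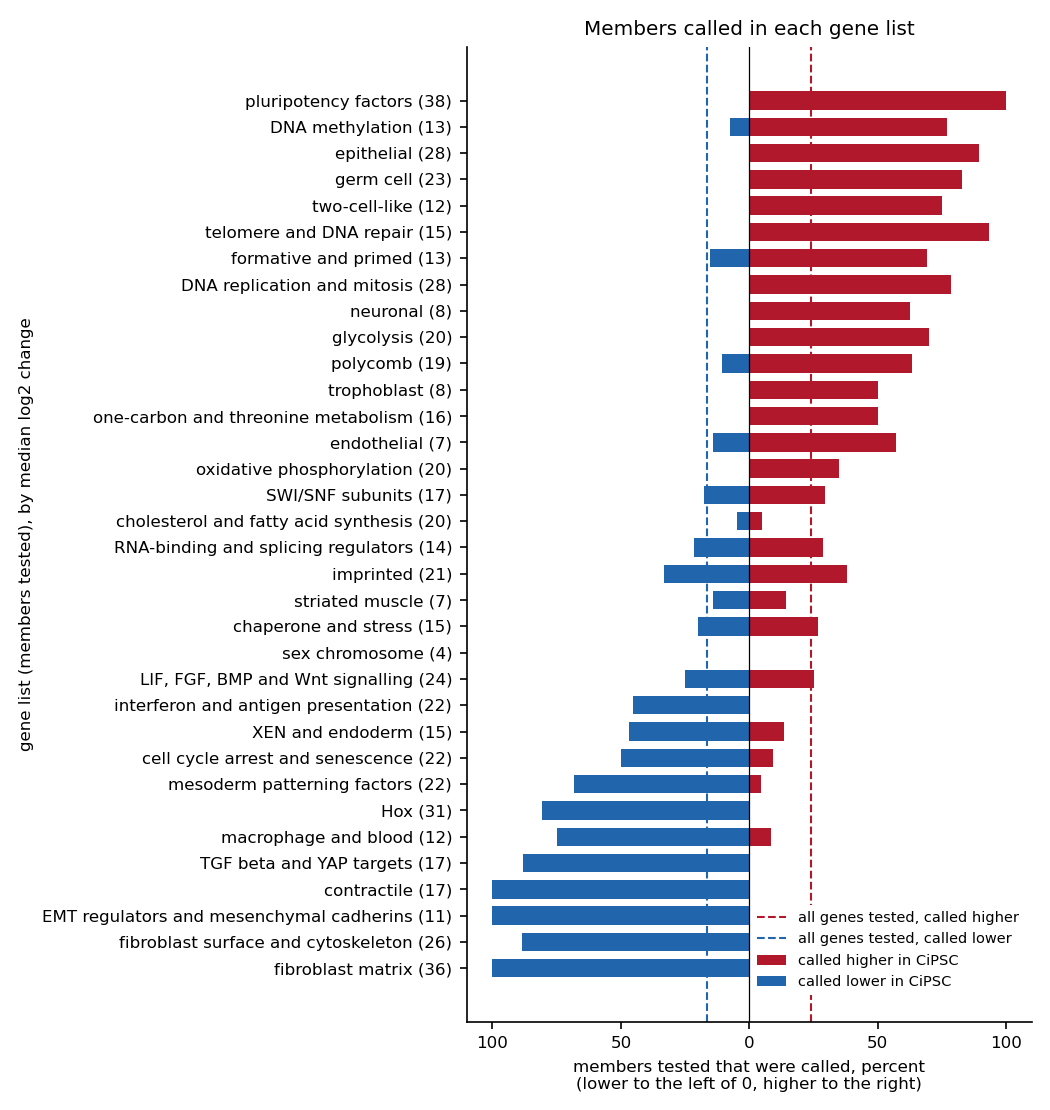
Share of tested members called higher (right, red) or lower (left, blue) in CiPSC for each of the 34 gene lists, ordered by median log2 change, with the number tested in brackets. Dashed lines give the shares over all 14984 genes tested (24.0% higher, 16.3% lower). Pluripotency factors lie at 100% higher, and matrix, contractile and mesenchymal regulator lists at 100% lower.

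A stricter view by level alone gave 205 genes that reached at least 5 FPKM in all 7 lines and stayed under 0.5 FPKM in both MEF libraries. Of these, 193 were also at 5 FPKM or more in both ESC libraries. Beside the genes above, they include the germ cell and pluripotency factor Prdm14, the receptor kinase Kit, the keratin Krt42 and the synaptonemal protein Sycp3. The 12 that were lower in at least 1 ESC library include the homeobox factor Gbx2, at 5.12 to 19.4 FPKM in CiPSC and 4.80 and 3.44 in ESC. The mirror set held 78 genes, of which 72 were also under 0.5 FPKM in both ESC libraries. It includes the growth factor receptor Pdgfra, the proteoglycan Dcn, the adhesion molecule Vcam1 and Hoxb8. The examples of both sets were picked after their values were seen.

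Some genes varied widely among the lines. Zscan4f stood at 124, 101, 70.7, 91.9 and 61.1 FPKM in C1, C2, C3, G1 and G3, and at 4.88 in N4 and 6.13 in N6, against 0 and 0.0208 in MEF. The homeobox gene Rhox5 was likewise lowest in the N lines, with 118 to 552 FPKM in the C and G lines and 11.6 and 24.4 in N4 and N6, against 1.09 and 0.157 in MEF (6.51 ± 1.35). Dazl stood at 16.1 to 53.6 FPKM in the C and G lines and 4.66 and 3.81 in N4 and N6. The 2-cell-like genes averaged, on the log2(FPKM + 1) scale, 2.92 to 3.53 in the C and G lines, 0.876 and 0.880 in N4 and N6, 0.012 and 0.004 in MEF, and 2.95 and 2.10 in ESC. The mean of the pluripotency list lay between 6.21 and 6.51 in all 7 lines, but single members were highest or lowest in the N lines. Examples of both were picked after their values were seen. Sox2 stood at 241 and 225 FPKM in N4 and N6 against 178 to 204 in the C and G lines. Fgf4 stood at 104 and 95.3 FPKM in N4 and N6 against 42.9 to 74.6. Fbxo15, a target of Oct4 and Sox2, stood at 119 to 217 FPKM in the C and G lines and at 45.0 and 48.0 in N4 and N6, and Dppa2, a chromatin protein of pluripotent cells, at 80.9 to 134 and at 29.0 and 47.0. MEF held 0.0497 and 0.0548 FPKM of Fbxo15 and 0 of Dppa2. The difference between N and other lines was seen in the values and was not tested. C3, the line of lowest depth, had the highest Dnmt3l (469 FPKM) and the highest Slc2a3 (776 FPKM), and N4 the highest Igfbp4, an IGF-binding protein, at 62.8 FPKM against 2.40 to 12.5 in the other 6 lines. The part of depth in the C3 values was not tested.

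**Figure D5:**
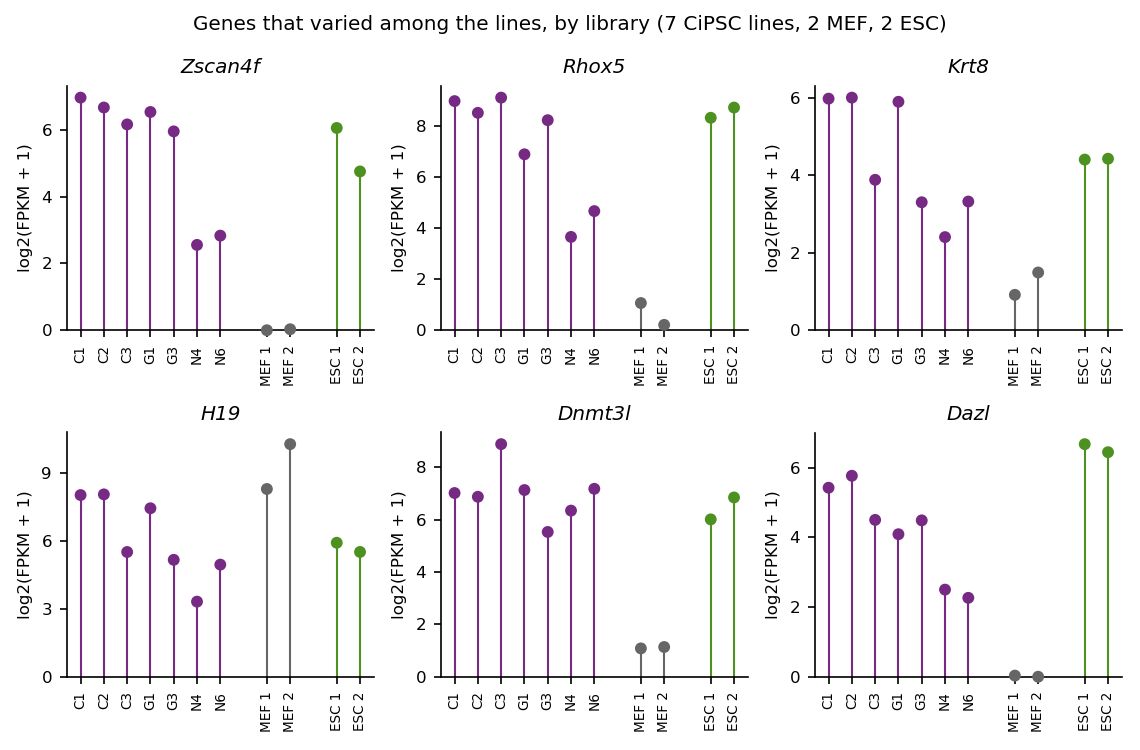
Level of 6 genes in each library as log2(FPKM + 1), with the 7 CiPSC lines at the left (purple), then 2 MEF (grey) and 2 ESC (green) libraries. N4 and N6 are lowest among the lines for Zscan4f, Rhox5 and Dazl, C1, C2 and G1 are highest for Krt8 and H19, and C3 is highest for Dnmt3l.

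Of the genes not called, those with the highest mean level included the elongation factor Eef1a1 and beta-actin (Actb). Eef1a1 stood at 5798 to 7980 FPKM in CiPSC (median 6485) against 4445 and 6955 in MEF (0.23 ± 0.19, adjusted p = 0.300), and Actb at 2380 to 4211 FPKM (median 3442) against 5334 and 3558 (-0.40 ± 0.22, adjusted p = 0.147). Gapdh, often used as a reference gene, was called higher at 2793 to 4255 FPKM in CiPSC (median 2991) against 1881 and 1063 in MEF (1.20 ± 0.24, adjusted p = 0.00143). Gapdh changed by 0.98 after quantile normalization, 0.90 after median-of-ratios scaling and 0.79 without MEF replicate 2, all under the fold threshold. Ribosomal protein genes together took 18.8% ± 1.32 (SD, n = 7) of the FPKM in CiPSC and 15.3% ± 1.30 (SD, n = 2) in MEF (two-sided exact permutation p = 0.0556).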

How the data were processed

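RNA was sequenced from total RNA (RNeasy Plus kit, NEBNext Ultra library kit, per the labels' protocols). The deposited files hold FPKM values per gene. The submitters' processing notes name TopHat, Cufflinks and mm10, and tool versions are not given in the sources used here. Each file lists 43496 loci, and 40 gene IDs with several loci were summed. Of the IDs tested, 98.8% were found in GENCODE vM21, used for gene classes. Locus starts were counted from 0 in the files and are printed from 1. All tested genes were kept whatever their status flag (7 not OK). The symbol Snrpn has 2 gene IDs that overlap and is not described.

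Values were taken as log2(FPKM + 1), filtered at 1 FPKM in 2 of the 9 libraries and fitted with limma 3.58.1 in R 4.3.3 (intensity trend, 7 residual degrees of freedom, Benjamini-Hochberg over 14984 genes). The spread came mostly from the CiPSC lines (mean SD 0.332 log2 in CiPSC, 0.371 in MEF). The fit was tested on simulated data in which 200 of 14984 genes were changed. It found 68% of changes of 1.5 log2 units, 88% of 2, 94% of 3 and 100% of 5. Of the unchanged genes, 7 were called. The simulation gave both groups the same spread per gene and changed far fewer genes than the 40.3% called here. Its shares need not hold for these data. Other tools were Python 3.11.15, numpy 2.4.6, pandas 2.3.3, scipy 1.17.1 and matplotlib 3.10.9.

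The members and the 34 lists were chosen with earlier results of these data known, and lists are described by counts and medians with no test. Named genes were 30 markers, the 10 largest increases and decreases called with no overlap of the groups (mean of at least 5 FPKM in 1 group, predicted genes and small RNAs left out), up to 5 called members per list plus up to 3 against its majority, the 10 widest ranges over lines and the 10 highest genes not called. Some of these are not reported here, and a few other list members are named by role after their values were seen. Of the listed symbols, 9 were not analysed here. Promoter windows were from RefSeq (GRCm38.p6). They covered 66.8% of tested symbols, so shares of motifs among called genes are not given, and Dppa5a, Cdh1, Col1a1 and Tagln had none. The motifs were chosen from known binding sites. The letters of the joint Oct4 and Sox2 element were taken from the Nanog window, so a match there was certain. Alternatives covered pseudocount, filter, scaling, prior, libraries in the fit, gene class, status and each library left out.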

Additional observations from a re-analysis of the deposited data

Results flagged for a closer look

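Among 217 measures tested over the 7 CiPSC lines, Dixon's criterion marked 9 in which 1 line stood far from the other 6, and chance marks about 1 in 20 groups. In line C1 the Y-linked genes Ddx3y, Eif2s3y and Uty were at 0.0 FPKM, against 4.78 to 12.2, 13.6 to 29.0 and 3.33 to 4.74 FPKM in the other lines. In line G1 caldesmon (Cald1) was at 42.7 FPKM (15.9 to 24.2 in the others), the ligand Tgfb3 at 7.87 FPKM (0.0429 to 1.51) and the collagen IV chain Col4a1 at 20.7 FPKM (11.7 to 14.7). In line C3 the plasminogen activator Plat was at 0.810 FPKM (0.202 to 0.425) and the receptor chain Il6st at 9.02 FPKM (13.2 to 17.0). In line G3 the adaptor Tyrobp was at 0.308 FPKM and at 0 in the other 6 lines. With the other 6 lines at 0, the criterion marks any value above 0. The Tyrobp value lies under 1 FPKM, the level used for the filter.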

How the results depend on the processing

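Calls in the opposite direction numbered 0 under every alternative tried. Each alternative reused some or all of the same 9 libraries, so few reversals could arise. Genes higher ranged from 2679 (quantile normalization) to 4507 (pseudocount 0.1) and genes lower from 1769 (filter at 5 FPKM) to 2958 (median-of-ratios scaling), against 3597 and 2447. With each library left out in turn they ranged from 3151 to 3680 and from 2247 to 2567. A spread of its own for each group gave 2997 and 2240. Of the 6044 calls, 5123 were kept after quantile normalization, 5134 after median-of-ratios scaling, 5216 without MEF replicate 1 and 4819 without MEF replicate 2. Scaling moved the share of higher calls from 59.5% to 49.0% and 47.6%. The cause was not tested. Of the named genes, 34 lost their call under at least 1 alternative and 0 turned round. Of the counts per gene list, 28 moved by more than 1.5 times under at least 1 alternative, and the 2-cell-like count of 9 higher was 1 with a spread of its own for each group. No paired analysis was possible because the CiPSC libraries carry line names and the MEF libraries replicate numbers, with none shared. Depth in read counts is unknown, and 2 MEF libraries limit the precision.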
